A study of Mus musculus with 2 samples.

Results

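The miR-192 and miR-194 arms are the mature small RNAs cut from a pair of neighbouring microRNA genes, Mir194-2 and Mir192, on mouse chromosome 19. Every listed miRNA whose name begins with miR-192- or miR-194- was taken, which gave 4 arms (mmu-miR-192-5p, mmu-miR-192-3p, mmu-miR-194-5p and mmu-miR-194-2-3p, where mmu stands for mouse) out of 197 named miRNAs in all. The tissue was liver from C57BL/6 mice, wild type, 2 to 3 months of age and fed ad libitum, in 1 group of 2 replicate small RNA libraries, each made from 1 µg of total RNA. The named miRNAs held 538023 counts in replicate 2 and 306351 in replicate 1, and all 4 arms were listed in both libraries. With 1 group there is no contrast between conditions, so levels are described and the tests compare the libraries with each other. The labels do not state whether each replicate was a different animal, so any difference between them may be technical. The tests set 1 library against 1 library and treat reads as independent, so their p-values cover counting error only and not the spread between animals or library preparations.

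A microRNA is transcribed as a long primary RNA, trimmed to a hairpin and then cut into a duplex of a 5p and a 3p arm, of which usually 1 is loaded into an Argonaute protein and the other is degraded. The seed, bases 2 to 8, does most of the target pairing. miR-192 and miR-194 are made from a shared primary transcript and are abundant in liver, intestine and kidney epithelium. A second copy of the gene pair, Mir194-1 with Mir215, lies on chromosome 1, and miR-215 is the close relative of miR-192. miR-192 and miR-215 are known to be induced by the tumour suppressor p53 and to slow the cell cycle, and miR-194 is known as an epithelial miRNA that restrains migration of liver cancer cells.

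The mature sequences carry the identity of each arm and decide which genomic copy a read can be assigned to. The sequences deposited for the 4 arms are given 5′ to 3′ with the seed in capitals, and each was the same in both libraries.
miR-192-5p: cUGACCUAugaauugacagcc
miR-192-3p: cUGCCAAUuccauaggucac
miR-194-5p: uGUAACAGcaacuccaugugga
miR-194-2-3p: cCAGUGGGgcugcuguuauc
The relatives from the chromosome 1 copy, taken from RefSeq (GRCm38.p6), are shown for comparison, again with the seed in capitals.
miR-215-5p: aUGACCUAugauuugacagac
miR-194-1-3p: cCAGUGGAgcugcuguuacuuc
miR-192-5p and miR-215-5p share the seed UGACCUA and 18 of 21 bases. Counted from 1 at the 5′ end, with the base of miR-192-5p first, they differ at C1A, A12U and C20A. miR-194-5p is identical over its 22 bases between Mir194-2 and Mir194-1. The 3p arms of the miR-194 copies match at 18 of 22 bases, and with the base of miR-194-2-3p first they differ at G8A, U19C, C20U and G22C, so that their seeds differ in the last base. No other listed miRNA shared the seed of any of the 4 arms.

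In RefSeq the hairpins read as follows on the plus strand, with the annotated arms in capitals. They are shown because the arms sit close together within each hairpin and the hairpins close together within each copy.
Mir194-2: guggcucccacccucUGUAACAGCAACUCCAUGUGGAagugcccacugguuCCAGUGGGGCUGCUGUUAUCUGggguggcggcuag
Mir192: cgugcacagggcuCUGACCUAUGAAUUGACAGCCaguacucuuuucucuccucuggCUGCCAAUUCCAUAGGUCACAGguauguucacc
Mir194-1: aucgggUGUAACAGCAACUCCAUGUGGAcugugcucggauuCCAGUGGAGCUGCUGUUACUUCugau
Mir215: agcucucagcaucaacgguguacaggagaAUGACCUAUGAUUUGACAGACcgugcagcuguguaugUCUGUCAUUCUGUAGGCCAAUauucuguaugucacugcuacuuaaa
Mir194-2 (chr19:6264643-6264728) and Mir192 (chr19:6264844-6264932) are separated by 115 bases, and together they span 290 bases. In the GENCODE M21 annotation of GRCm38 neither overlaps another gene. Atg2a, which encodes a lipid transfer protein of autophagy, ends 2307 bases before Mir194-2, and the non-coding gene Gm14963 lies 3862 bases after Mir192. Mir194-1 (chr1:185313319-185313385) and Mir215 (chr1:185313581-185313692) are separated by 195 bases and lie opposite an intron of Iars2, the mitochondrial isoleucyl-tRNA synthetase gene, which is on the minus strand. On the plus strand the antisense gene 2010103J01Rik holds Mir194-1 in an intron, and an exon of it overlaps Mir215.

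**Figure D1:**
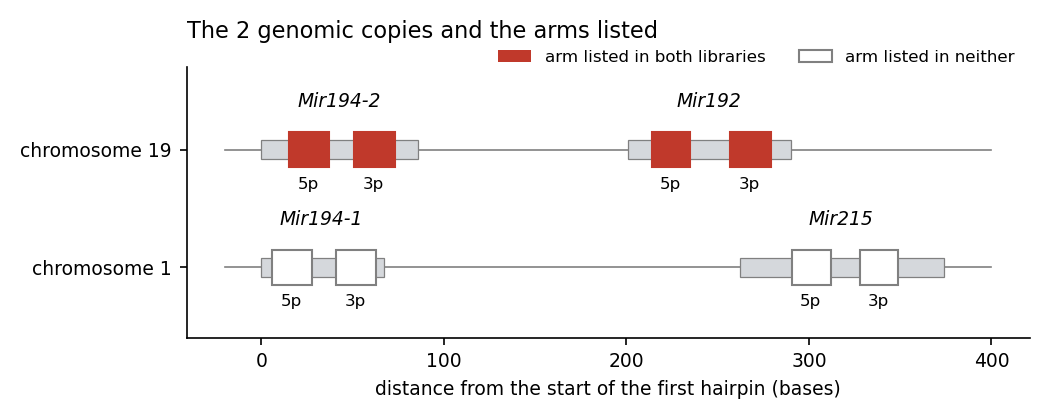
The hairpins (grey) and annotated arms (boxes) of the chromosome 19 and chromosome 1 copies, by distance in bases from the start of the first hairpin of each copy. All 4 arms of the chromosome 19 copy are listed in both libraries (filled), and none of the 4 of the chromosome 1 copy is listed in either (open).

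All reads of the cluster were listed at the chromosome 19 copy. Of the 4 arms annotated at Mir194-1 and Mir215, 0 were listed in replicate 2 and 0 in replicate 1, and no other locus was listed within 10 kb of either copy. The files list called loci only, so this sets no upper limit on the level of miR-215 or of miR-194-1-3p. miR-194-5p cannot be assigned to a copy by its sequence, and its counts may include reads from Mir194-1. The arm that does tell the copies apart, miR-194-2-3p, was listed with the chromosome 19 bases, at 2 counts in replicate 2 and 8 in replicate 1. Listing at a single copy was usual for mature names with several annotated genes, holding for 11 of 14 such names in replicate 2 and 11 of 13 in replicate 1.

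The 5p arms made up nearly all of the cluster. miR-192-5p had 6912 counts in replicate 2, or 1.28% of named miRNA counts (exact Clopper-Pearson 95% interval 1.25 to 1.32), and 4463 in replicate 1, or 1.46% (1.41 to 1.50). Its mean was 1.37% ± 0.122 (SD, n = 2), place 17 of the 151 named miRNAs listed in both libraries. As a share it was lower in replicate 2, and the counting intervals did not overlap. miR-194-5p had 1768 counts in replicate 2, or 0.329% (0.313 to 0.344), and 1120 in replicate 1, or 0.366% (0.345 to 0.388). Its mean was 0.347% ± 0.0262 (SD, n = 2), place 30, again lower in replicate 2 with intervals that just missed each other. Every mature miRNA is counted as 1 short read, so no length scaling was applied, and the intervals cover counting error only.

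The 3p arms were near the bottom of the list. miR-192-3p had 16 counts in replicate 2, or 0.00297% (0.00170 to 0.00483), and 2 in replicate 1, or 0.000653% (7.91e-05 to 0.00236). miR-194-2-3p had 2 counts in replicate 2, or 0.000372% (4.50e-05 to 0.00134), and 8 in replicate 1, or 0.00261% (0.00113 to 0.00515). Unlike those of the 5p arms, the counting intervals of each 3p arm overlapped between the libraries. The 3p arms took places 125 and 126, with means of 0.00181% ± 0.00164 and 0.00149% ± 0.00158 (SD, n = 2), so that each SD was about as large as its mean. The order of the 3p arms differed between the libraries, miR-192-3p being the higher in replicate 2 and miR-194-2-3p in replicate 1. In replicate 1 their counting intervals overlapped, so the order there, on 8 against 2 counts, is not settled. Together the 4 arms held 8698 counts in replicate 2, or 1.62% (1.58 to 1.65), and 5593 in replicate 1, or 1.83% (1.78 to 1.87), of which 99.8% were 5p in each.

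**Figure D2:**
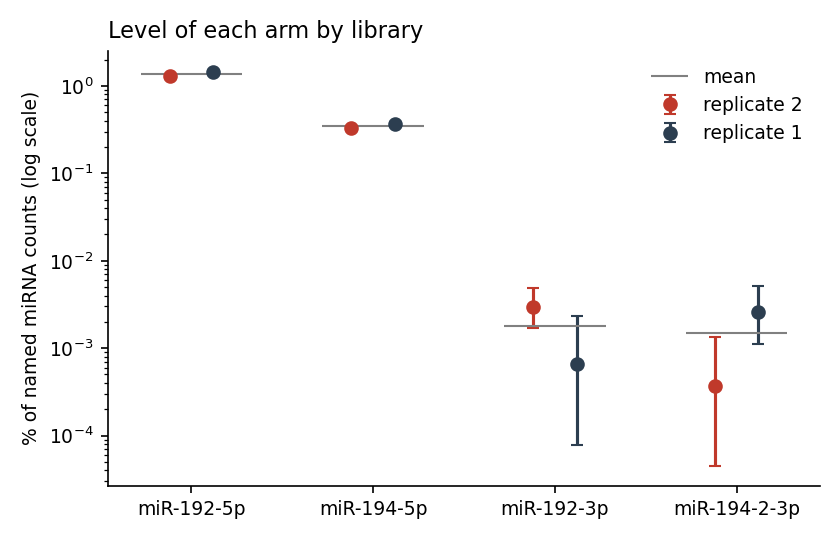
Share of named miRNA counts of each arm on a log scale, replicate 2 left of replicate 1, with exact 95% intervals for counting error and the mean as a line. The 5p arms sit at 1.37% and 0.347% with both libraries close together on this scale, though the intervals of each do not overlap between libraries. The 3p arms sit below 0.003% with the libraries further apart and in opposite order, and the wide intervals of each overlap between libraries.

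In the order of levels miR-192-5p stood just below miR-151-3p (1.38% ± 0.279), miR-10a-5p (1.63% ± 0.422) and miR-27b-3p (1.81% ± 0.206). The ranges of miR-151-3p and miR-10a-5p over the 2 libraries overlapped that of miR-192-5p, and that of miR-27b-3p did not. Below it stood let-7d-3p (1.03% ± 0.176), miR-30c-5p (0.799% ± 0.122) and miR-125b-5p (0.635% ± 0.0163), none of whose ranges overlapped. Places 15 to 17 are thus not separated by the spread between libraries. miR-194-5p stood below miR-23b-3p (0.413% ± 0.0174), miR-351-5p (0.392% ± 0.0508) and miR-30e-5p (0.351% ± 0.0405), and above miR-744-5p (0.290% ± 0.123), let-7d-5p (0.271% ± 0.141) and miR-150-5p (0.254% ± 0.0808). Of these 6 neighbours, the ranges of miR-23b-3p and miR-150-5p did not overlap that of miR-194-5p. The other 4 could not be ranked against it beyond their spread.

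The first comparison was between the co-transcribed hairpins. miR-194-5p stood at 0.256 of miR-192-5p in replicate 2 (exact 95% interval 0.243 to 0.270) and at 0.251 in replicate 1 (0.235 to 0.268), a mean of 0.253 ± 0.00342 (SD, n = 2). miR-192-5p was thus 3.95 ± 0.0533 times as abundant in counts. The order was the same in both libraries, and with 2 libraries a 2-sided exact sign test cannot go below p = 0.5. Counts of different miRNAs also differ in how well each is ligated and amplified, which was not measured, so the ratio is one of counts and not of molecules. Because miR-194-5p may include reads of Mir194-1, the ratio may also not be that of Mir194-2 to Mir192 alone.

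The ratio of miR-194-5p to miR-192-5p in replicate 2 was 1.02 times that in replicate 1 (95% interval 0.937 to 1.11), and Fisher's exact test found no difference (p = 0.669, adjusted p = 0.748 over 19 pairs). The pairs were all named hairpins listed within 10 kb of each other on the same strand in both libraries, each by its more counted arm. Of these 19 pairs, 42.1% differed between the libraries at an adjusted p under 0.05. By the size of the shift between libraries the Mir194-2 and Mir192 pair was place 2 from the smallest, with a log2 shift of 0.03 against a median absolute shift of 0.32 over all pairs. The pair ranked below it, Mir25 with Mir93, rested on fewer counts and had a wider interval. The fold between the pair's members, 3.95, was the median of the 19 pairs, which ran from 1.61 to 63.2.

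**Figure D3:**
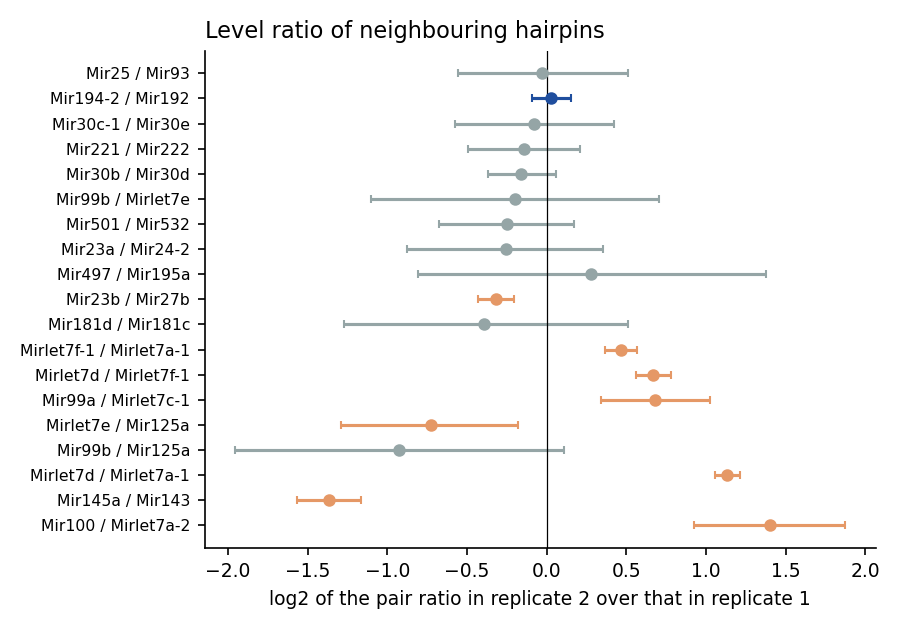
Log2 of the level ratio of neighbouring hairpins in replicate 2 over that in replicate 1, with 95% intervals from the exact conditional odds ratio. Mir194-2 over Mir192 (blue) lies at 0.03, beside pairs past the test (orange) and not past it (grey), which extend to 1.40 in absolute size.

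The second comparison was between the replicate libraries. Each miRNA was tested with a 2-sided exact binomial test, with library sizes scaled by TMM (the trimmed mean of M-values, which sets the bulk of miRNAs to no change). Over all 131 miRNAs tested, 44.3% differed at an adjusted p under 0.05, 21.4% being higher and 22.9% lower in replicate 2. Of the 4 arms, both 3p arms differed, 1 of them higher and 1 lower, and neither 5p arm did. The share of arms called was therefore close to the background. The log2 ratio of replicate 2 to replicate 1 was -0.02 for miR-192-5p (95% interval -0.07 to 0.04, adjusted p = 0.681 by the exact test). For miR-194-5p it was 0.01 (-0.10 to 0.12, adjusted p = 0.959 by the exact test). In absolute log2 ratio they were places 3 and 1 from the smallest of the 131, whose median absolute value was 0.35. With library totals in place of TMM, which put the median of all tested miRNAs at -0.19, against -0.03 with TMM, both 5p arms passed the test as lower in replicate 2 (-0.18 for miR-192-5p and -0.15 for miR-194-5p). Under either scaling they lay close to the median of all tested miRNAs.

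The 3p arms differed in opposite directions. miR-192-3p had a log2 ratio of 2.07 (95% interval 0.26 to 5.52, adjusted p = 0.0358 by the exact binomial test), with its 16 counts in replicate 2 against 2 in replicate 1. miR-194-2-3p had a log2 ratio of -2.41 (-5.92 to -0.32, adjusted p = 0.0407 by the same exact test), with 2 against 8. In absolute log2 ratio they were places 130 and 129 from the smallest of the 131, miR-194-2-3p being the larger, and both rest on a library with 2 counts. Of the 31 tested miRNAs with under 50 counts summed, 12.9% were called and 3 had an absolute log2 ratio over 2. Both 3p arms of the cluster were among those called and among those 3. Of the 100 with more counts, 54.0% were called and none had an absolute log2 ratio over 2. miR-194-2-3p, at 10 counts summed, was exactly at the minimum for testing. With library totals miR-192-3p no longer passed (log2 ratio 1.91, adjusted p = 0.0540 by the exact test).

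**Figure D4:**
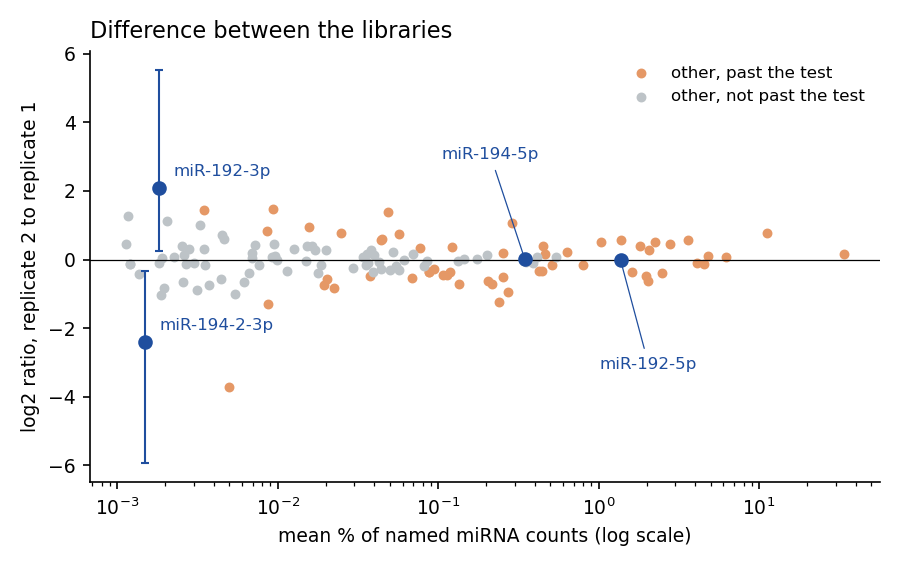
Log2 ratio of replicate 2 to replicate 1 against mean share of named miRNA counts for the 131 miRNAs tested, with the 4 arms in blue and their exact 95% intervals. miR-192-5p and miR-194-5p lie at -0.02 and 0.01, and the 3p arms lie at 2.07 and -2.41 with wide intervals.

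Set side by side, miR-194-2-3p stood at 2 counts against 16 of miR-192-3p in replicate 2, and at 8 against 2 in replicate 1. The order of the less counted arms was thus opposite in the libraries, while miR-192-5p was above miR-194-5p in both. This pair of arms was singled out after its counts had been seen, so no test is given, and the part that counting at this depth or library preparation has in it was not tested.

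Among miRNAs with at least 100 counts in each library, those whose log2 ratio lay nearest that of miR-192-5p were miR-676-3p (-0.03), miR-103-3p (-0.03), miR-194-5p (0.01), miR-139-5p (-0.05) and miR-107-3p (0.02). Nearest to miR-194-5p were miR-107-3p, miR-151-5p (0.03), miR-192-5p, miR-676-3p and miR-103-3p. The arms of the cluster were each place 3 of 72 candidates in nearness to the other, at a difference of 0.03 on the log2 scale. That difference restates the log2 shift of the pair ratio given above, because the scaling between libraries cancels. Only the place among candidates is added here. The likeness is over 2 libraries only, and each value lies within the counting interval of both arms.

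The third comparison was between the arms of each hairpin. In Mir192 the 5p arm held 99.8% of counts in replicate 2 (exact 95% interval 99.6 to 99.9) and 99.96% in replicate 1 (99.8 to 99.99), a mean of 99.9% ± 0.132 (SD, n = 2). In Mir194-2 it held 99.9% in replicate 2 (99.6 to 99.99) and 99.3% in replicate 1 (98.6 to 99.7), a mean of 99.6% ± 0.422. The 3p arm thus held 0.231% in replicate 2 and 0.0448% in replicate 1 for Mir192, and 0.113% in replicate 2 and 0.709% in replicate 1 for Mir194-2. In counts, the 5p arm exceeded the 3p arm 432-fold in replicate 2 for Mir192, and 140-fold in replicate 1 for Mir194-2, the libraries in which the 3p arm had more than 3 counts.

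Both hairpins were dominated by the 5p arm in both libraries, as were 42.6% of the 47 hairpins tested (2-sided exact binomial test against equal shares). Among the 20 hairpins dominated by 5p, the mean 5p share ran from 74.1% to 99.99% with a median of 99.7%, so that Mir192 lay just above the median and Mir194-2 just below it. By mean 5p share Mir192 was place 6 and Mir194-2 place 12 of 47. The 5p share in replicate 2 minus that in replicate 1 was -0.186 percentage points for Mir192 and 0.596 for Mir194-2. Fisher's exact test found neither difference past the threshold (p = 0.0144 and p = 0.0172, adjusted p = 0.135 for both), against 8.51% of hairpins that passed. Because miR-194-5p may include reads of Mir194-1, the 5p share of Mir194-2 may be too high.

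**Figure D5:**
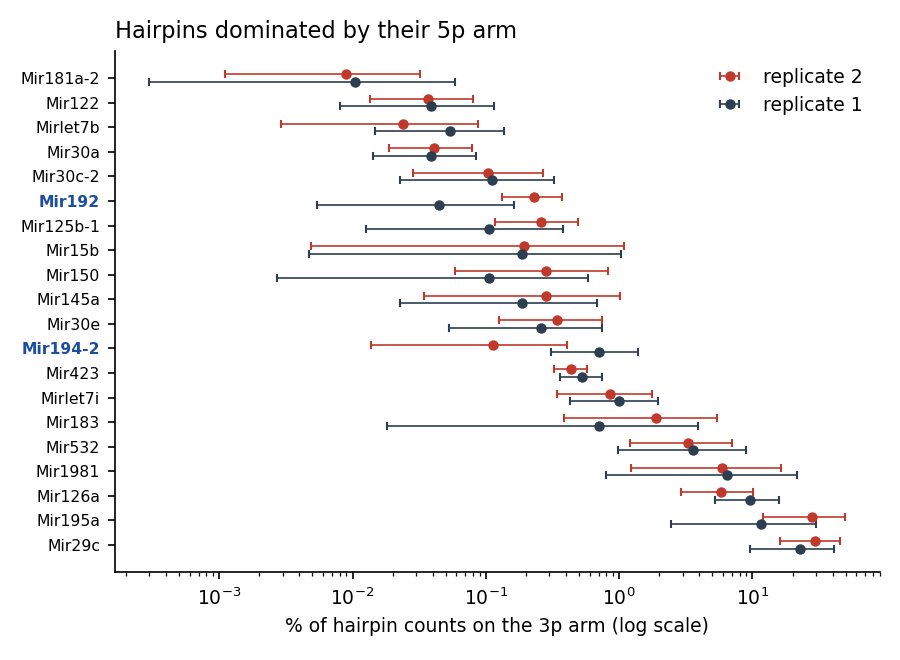
Share of hairpin counts on the 3p arm, on a log scale, for the 20 hairpins dominated by 5p in both libraries, with exact 95% intervals. Mir192 and Mir194-2 (blue labels) lie at place 6 and place 12 from the top, at 0.231% and 0.113% in replicate 2 and at 0.0448% and 0.709% in replicate 1.

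The cluster was then set beside other miRNAs enriched in hepatocytes. miR-192-5p stood at 0.423 of miR-122-5p, the classical hepatocyte miRNA, in replicate 2 and at 0.582 in replicate 1 (mean 0.502 ± 0.113, SD, n = 2). miR-122-5p had 16356 counts in replicate 2 and 7668 in replicate 1 and was called higher in replicate 2 (log2 ratio 0.44, and 0.28 with library totals, adjusted p = 8.04e-112 and 9.38e-45 by the exact test, for counting error only). A shift of that size was ordinary between these libraries, whose median absolute log2 ratio was 0.35. miR-802, a miRNA known to rise in obese liver in mice, was listed in replicate 2 alone, with 34 counts of its 3p and 5 of its 5p arm.

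The hepatocyte-enriched list held miR-122, miR-192, miR-194, miR-215, miR-802, miR-148a, miR-101b, miR-193a and miR-365. Of these 9 miRNAs, 6 were listed and miR-215, miR-101b and miR-193a were not, and the list took 5.22% of counts in replicate 2 and 4.83% in replicate 1. miR-148a-3p, known to favour hepatocyte differentiation, had 2481 counts in replicate 2 and 1413 in replicate 1, or 0.461% ± 7.28e-05 (SD, n = 2), and was called higher in replicate 2 (log2 ratio 0.16, adjusted p = 0.00187 by the exact test), but not with library totals (-0.00054, adjusted p = 1 by the exact test). miR-148a-5p had 210 and 123 counts and did not pass (0.12). miR-365-3p and miR-365-2-5p were listed in replicate 2 alone, with 302 and 1 counts, and miR-122-3p had 6 counts in replicate 2 and 3 in replicate 1. Of 7 tested arms of the list, 4 of them the cluster's own, 3 were called higher in replicate 2 and 1 lower, while 3 missed the threshold, beside 44.3% called over all 131 miRNAs. The median log2 ratio was 0.12, against -0.03 over all tested miRNAs. The 1 called lower was the cluster's own miR-194-2-3p, and the 3 called higher were miR-122-5p, miR-148a-3p and the cluster's own miR-192-3p. With library totals 1 was called higher and 3 lower, beside 19 and 45 of all 131, with a median of -0.04 against -0.19. All 3 called lower were then the cluster's own (miR-192-5p, miR-194-5p and miR-194-2-3p), and the 1 called higher was miR-122-5p. The split is thus largely that of the cluster itself, and no hepatocyte-enriched arm outside it was called lower.

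Because miR-192 and miR-194 are also made in kidney and intestine, markers of those and of other cells were read in the same libraries. None of the 4 kidney miRNAs (miR-204, miR-196a, miR-196b and miR-10b) was listed. Of 6 biliary and intestinal epithelial miRNAs, miR-200b and miR-31 were listed, with 0.103% of replicate 2 and 0.125% of replicate 1, and miR-200a, miR-200c, miR-141 and miR-429 were not. miR-31-5p led that list with 386 counts in replicate 2 and 319 in replicate 1 and was called lower in replicate 2 (log2 ratio -0.37), and miR-200b-3p, with 163 in replicate 2 and 60 in replicate 1, was called higher (0.79). Endothelial miR-126a held 0.0355% in replicate 2 and 0.0444% in replicate 1. Of 5 immune miRNAs 2 were listed, with 0.212% and 0.341%, led by miR-150-5p, and miR-142a, miR-155 and miR-223 were not. Of 5 stellate and mesenchymal miRNAs 4 were listed, with 0.349% and 0.559%, and miR-199b was not. Of those 4, miR-199a was listed in replicate 2 alone, with 48 counts of its 5p arm. In the last list miR-143-3p was highest in replicate 2 (1073 counts, and 628 in replicate 1) and miR-145a-5p in replicate 1 (1060 counts, and 702 in replicate 2). miR-145a-5p was the 1 arm of its 5 tested that was called, as lower in replicate 2 (log2 ratio -1.24), and the other 4 had log2 ratios between 0.12 and 1.00. Erythroid miRNAs were listed in replicate 2 alone, as 14 counts of miR-486b-5p, and miR-144, miR-451a and miR-486a were not listed. Unlisted miRNAs carry no upper limit, and the part of other cell types in the level of the cluster was not tested.

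The deposited files also give a hairpin sequence for each locus, and those of the cluster did not match the reference throughout. They are shown with bases that differ from RefSeq in capitals.
Mir192 replicate 2: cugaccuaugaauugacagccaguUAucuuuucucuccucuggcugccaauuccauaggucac
Mir192 replicate 1: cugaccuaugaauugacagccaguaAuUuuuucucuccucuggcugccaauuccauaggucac
Mir194-2, both replicates: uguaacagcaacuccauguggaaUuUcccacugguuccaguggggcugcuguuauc
With the reference base first and positions counted from 1 at the first base of the deposited hairpin, Mir192 had A25U and C26A in replicate 2 and C26A and C28U in replicate 1. Mir194-2 had G24U and G26U in both. Each hairpin differed at 2 positions, of 63 bases for Mir192 and of 56 for Mir194-2. All of them lay between the arms, 2 to 7 bases past the end of the 5p arm. The deposited bases were A or U at each of these positions. No base within any of the 4 listed arms differed from RefSeq.

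Such differences were common in these files. Of named plus-strand loci that lay within a RefSeq hairpin, 76 of 100 in replicate 2 and 70 of 87 in replicate 1 had at least 1 differing base in the deposited hairpin, and 13 and 9 had one within the listed mature arm. The reference genome is of C57BL/6J mice, and no source used here says how the hairpin sequences were built, so the cause was not tested. The deposited structures paired 19 of 21 bases of miR-192-5p and 19 of 22 of miR-194-5p, all 7 seed bases included in both. The listed arms were joined by 17 base pairs in Mir192 and by 18 in Mir194-2. Both 5p arms had the RefSeq length and both 3p arms were listed 2 bases shorter at the 3′ end, as 20 bases where RefSeq has 22. In replicate 2, 38 of 72 listed 3p arms were shorter than in RefSeq, against 16 of 84 5p arms.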

How the data were processed

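Per the labels' protocols, small RNA libraries came from Trizol-extracted liver RNA and a TruSeq kit. The authors deposited raw counts of reads for each miRNA locus called, with positions and sequences. Tools named in the submitters' processing notes are Bowtie 1.0.1, cutadapt 1.5 and FastQC 0.11.2, with the build GRCm38 (mm10). Which program called the loci, and with what filters, is not given in the sources used. A miRNA missing from a file was treated as not listed, not as 0. Replicate 2 listed 220 loci and replicate 1 listed 200, of which 187 and 168 carried a miRNA name. The unnamed loci were left out of totals and tests.

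Each mature name was counted at its locus with the highest count. File positions were raised by 1, after which the 4 arms started where RefSeq and GENCODE M21 place them. Libraries were compared per miRNA by a 2-sided exact binomial test (scipy 1.17.1) at TMM effective library sizes (edgeR 4.0.16, R 4.3.3) for miRNAs listed in both and 10 or more counts in all. Log2 ratios have replicate 2 on top and use a prior count of 0.5. p-values were Benjamini-Hochberg adjusted over all tested miRNAs, hairpins or pairs, with a threshold of 0.05. The common coefficient of variation between libraries, by edgeR, was 0.229. No quasi-likelihood test was run, because 1 group has no contrast, and DESeq2 1.42.0 served for alternative size factors. Arm tests took hairpins listed with both arms and 20 or more counts per library. The tests were checked on counts simulated with counting error alone, so the check does not cover the spread between libraries. Results for 1 further list are not reported here. By rule the named miRNAs are the cluster's arms and relatives, their 3 neighbours in level on either side, the 5 most alike in log2 ratio with at least 100 counts, every listed hepatocyte-enriched miRNA and the highest member of other lists. Mir25 with Mir93, miR-200b and miR-199a fall outside it and were chosen once their values were known. The members and lists were chosen with earlier results of these data known.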

Additional observations from a re-analysis of the deposited data

How the results depend on the processing

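Of 90 alternatives over 21 results, 85 were labelled unchanged. Tested results had to keep their side of the threshold, and levels had to move by less than the spread between libraries. Counts of calls had only to stay within a fixed fold, as when 58 miRNAs called became 76 with unlisted miRNAs as 0. With 2 libraries, leaving out a library always moves a mean by less than their SD, so those alternatives could not fail. Changing the prior count could not alter a test either. Nor could the distance allowed between hairpins change the miR-194 to miR-192 ratio or take its test past the threshold. The count cut-offs per hairpin left the arm shares as they were and could act only through the adjustment of p-values. Among the 85, miR-192-5p, not past the test, had a log2 ratio of -0.02 with TMM and 0.01 with DESeq2 size factors. Scaling by library totals rather than TMM, the log2 ratio between libraries of miR-192-5p became -0.18 and passed the test (adjusted p = 3.52e-10 by the exact binomial test). That of miR-194-5p became -0.15, the opposite sign, and passed (adjusted p = 0.0137 by the exact test). That of miR-192-3p became 1.91 and no longer passed. Such scaling also moved the calls over all miRNAs to 19 higher and 45 lower in replicate 2, against 28 and 30. With the less counted arms, an alternative added after the counts were seen, the ratio of miR-194 to miR-192 became 2.06 and its ratio between libraries 0.0313, from which nothing is read because the counts prompted it. Leaving out a library gave 1.28% to 1.46% for miR-192-5p, 0.329% to 0.366% for miR-194-5p and 0.251 to 0.256 for their ratio. With at least 50 counts summed the 3p arms could not be tested. No paired analysis was possible because the labels give 1 group. Depth limits the 3p arms, which rest on 2 to 16 counts.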
